A study of Mus musculus with 5 samples.

Results

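The genes described here are 10 heat shock genes, of 31053 genes counted: *Hspa1a*, *Hspa1b*, *Hspa8*, *Hsph1*, *Dnajb1*, *Hspb1*, *Hsp90aa1*, *Hsp90ab1*, *Hspe1* and *Hspd1*. They are a list of symbols chosen by their levels in these libraries (the sums per library and hashtag described next), so those levels are given as a description and no test was made on them. Levels are given in CPM: the unique molecular identifiers (UMIs, a count of captured mRNA molecules) of a gene were added up in all cells of 1 type, by library and by mouse, and divided by all UMIs of those cells in units of 1000000. All 10 genes were detected in each of the 3 cell classes. The set is known as cytosolic, but *Hspd1* and *Hspe1* encode the chaperonin of the mitochondrial matrix, so the name covers only the other 8.

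Heat shock proteins are chaperones: they hold unfolded protein, help it fold and pass on what cannot be folded. HSP70 proteins bind short exposed stretches of a client, HSP40 co-chaperones bring clients and start the ATP cycle, HSP110 proteins exchange the nucleotide, small heat shock proteins hold clients without ATP, and HSP90 finishes the folding of kinases and receptors. Heat, oxidants or unfolded protein release the transcription factor HSF1, which binds repeats of the letters GAA and TTC before the start of inducible genes such as *Hspa1a* and *Dnajb1*, whereas *Hspa8* and *Hsp90ab1* are made in unstressed cells too. Enzymatic dissociation of tissue is known to induce the inducible members together with immediate early genes such as *Fos* and *Atf3*.

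The libraries were made from sorted lung cells of adult mice, after removal of CD45+ and Ter119+ cells. The deletion used a doxycycline-driven Cre under the SP-C promoter, which is active in alveolar type 2 (AT2) cells, in *Itgb1* fl/fl mice (β1 AT2-KO, labelled Itgb1 iKO). Controls were *Itgb1* fl/fl littermates without the rtTA and Cre transgenes (β1 fl/fl), and both genotypes received doxycycline. A single intratracheal dose of LPS was given to β1 fl/fl and β1 AT2-KO mice, with lungs taken at day 7 or day 21, and PBS was given to β1 AT2-KO mice taken at day 7. The day 21 libraries were enriched for EPCAM+ cells. Each of the 5 conditions was 1 library of pooled mice, with cells marked by hashtag antibodies. The paper does not say how many animals stand behind each hashtag. Each library had 3 hashtags in use and each hashtag was taken as 1 mouse, so that library and condition cannot be told apart and the spread between hashtags is the only error available.

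The AT2 class held 119 and 355 cells in the day 7 LPS libraries of β1 fl/fl and β1 AT2-KO mice, 26 cells after PBS, and 176 and 1240 cells in the day 21 libraries of β1 fl/fl and β1 AT2-KO mice. Endothelial cells numbered 879 to 7976 and mesenchymal cells 103 to 553. The libraries held 8360954 to 29128331 UMIs in kept cells, and any pair shared 24 to 164 cell barcodes (0.692% to 1.69% of the smaller one). Median depth lay between 1993 and 2490 UMIs in endothelial cells, 3054 and 4590 in mesenchymal cells, and 7615 and 11251 in AT2 cells. All 10 AT2 markers and all 10 endothelial and 10 mesenchymal markers were detected in their own class in every library. *Itgb1*, the targeted gene, was at 259, 234 and 305 CPM in AT2 cells of the day 7 β1 fl/fl mice and at 205, 151 and 191 in the β1 AT2-KO mice given LPS, with no overlap between the groups (edgeR log2 fold change -0.66 ± 0.17 SE, adjusted p = 0.0568). At day 21 it was lower in AT2 cells of β1 AT2-KO mice by a log2 fold change of -1.29 ± 0.12 SE (edgeR, adjusted p = 2.46e-07). *Xist* and Y-linked transcripts marked the 3 day 7 β1 fl/fl mice as female and the 3 LPS-treated β1 AT2-KO mice as male, so genotype and sex cannot be told apart at day 7. Of the PBS mice the first carried *Xist* (202 CPM) and the other 2 Y-linked transcripts (134 and 148). At day 21 the second and the third β1 fl/fl mouse carried *Xist* (243 and 215), as did the first β1 AT2-KO mouse (150), while the other 2 β1 AT2-KO mice carried Y-linked transcripts (77.7 and 108). Sex was thus unbalanced in all 3 comparisons, and its part was not tested. The first hashtag of the day 21 β1 fl/fl library carried both marks (*Xist* at 96.6 and Y-linked genes at 91.5 CPM), so it may hold more than 1 animal and is called a mouse only for short.

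The inducible HSP70 pair lies on mouse chromosome 17 (GRCm38), *Hspa1b* at 34956436 to 34959238 and *Hspa1a* at 34969190 to 34972156. Both are single-exon genes on the minus strand, 9951 bases apart. *Hspb1* lies on chromosome 5 at 135887919 to 135889563. The next sequences are the 150 bases before the start of these 3 genes (RefSeq promoter table, GRCm38.p6), shown because the pair shares nearly all of its upstream sequence and because all 3 hold the letters HSF1 is known to bind. Capitals mark matches to GAANNTTC or TTCNNGAA, each of which reads the same on both strands.
Hspa1a, minus strand, chr17:34972157-34972306: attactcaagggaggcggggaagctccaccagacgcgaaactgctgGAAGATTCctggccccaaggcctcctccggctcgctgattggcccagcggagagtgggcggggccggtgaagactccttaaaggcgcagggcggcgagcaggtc
Hspa1b, minus strand, chr17:34959239-34959388: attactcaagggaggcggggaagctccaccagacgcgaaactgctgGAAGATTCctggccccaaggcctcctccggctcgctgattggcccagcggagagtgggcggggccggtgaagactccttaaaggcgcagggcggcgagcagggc
Hspb1, plus strand, chr5:135887769-135887918: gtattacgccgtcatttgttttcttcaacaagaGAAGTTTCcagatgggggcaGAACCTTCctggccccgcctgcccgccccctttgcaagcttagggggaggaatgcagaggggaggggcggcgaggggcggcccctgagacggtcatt

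Of the bases shown, 149 of 150 are the same in *Hspa1a* and *Hspa1b*, and 247 of 250 over the whole upstream window. Their match starts 104 bases before the start of transcription, and those of *Hspb1* at 117 and 97 bases. *Hspd1* and *Hspe1* lie on opposite strands of chromosome 1 and overlap by 112 bases, and 1 run of adjoining repeats lies in windows of both genes. In *Hsph1*, on chromosome 5, such a run lies after the start. These runs are given in 30 bases each, since they show the longer form of the element.
Hspe1, plus strand, chr1:55088053-55088082: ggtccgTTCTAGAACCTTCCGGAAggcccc
Hsph1, minus strand, chr5:149636287-149636316: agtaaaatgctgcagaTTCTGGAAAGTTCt

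Windows from 250 bases before to 50 after a start were in the table for 7 of the 10 genes. GAANNTTC or TTCNNGAA was found in 6 of these 7 genes and in 15.1% of all 32851 windows of 300 bases. A longer form, with a further unit adjoining at the same spacing (GAANNTTC followed by NNGAA, or TTCNNGAA followed by NNTTC), was found in 3 of them, *Hspd1*, *Hspe1* and *Hsph1*, and in 0.603% of all windows. Both windows of *Dnajb1* held neither form. These matches are letters in a window and were not tested as binding sites. *Hspa8*, *Hsp90aa1* and *Hsp90ab1* had no window in the table.

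The near-identity of *Hspa1a* and *Hspa1b* means that reads may be split between them by the aligner, so their sum is the surer value. *Hspa1a* held between 51.1% and 72.2% of the pair's UMIs over the 15 combinations of library and class, the highest share resting on 26 *Hspa1a* and 10 *Hspa1b* UMIs. The pair's sum was highest in AT2 cells of the day 7 β1 fl/fl library, at 1659 CPM (95% counting interval 1584 to 1735), and lowest in AT2 cells after PBS, at 140 (98.2 to 194).

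Each gene had its own order over the 3 cell classes. *Dnajb1*, the HSP40 partner of inducible HSP70, was higher in AT2 than in endothelial cells in all 5 libraries, by 1.43- to 4.72-fold. *Hsp90aa1*, the inducible HSP90, was 1.88- to 4.78-fold higher in AT2 cells, and *Hspe1*, the lid of the mitochondrial chaperonin, 1.15- to 2.50-fold, again in all 5 libraries. The constitutive forms had the opposite order in CPM: *Hspa8* in AT2 cells was 0.669 to 0.989 of its endothelial level, and *Hsp90ab1*, the constitutive HSP90, 0.666 to 0.869. Both were also lower in mesenchymal than in endothelial cells in each library. *Sftpc*, by which AT2 cells were chosen, alone stood at 205183 to 244827 CPM in them, which lowers the CPM of every other gene there. AT2 levels below the endothelial ones may depend on this, and the orders were not recomputed without *Sftpc*. *Hspa1a* was higher in AT2 than in endothelial cells in 4 of 5 libraries, and after PBS it was at 0.262 of the endothelial level. *Hspb1*, a small heat shock protein that also binds actin, was higher in AT2 than in endothelial cells in 1 library only, the day 7 β1 fl/fl library, and mesenchymal levels ranged from 0.229 to 1.95 of the endothelial ones. *Hspd1*, the barrel of the chaperonin, stayed between 0.610 and 1.38 of its endothelial level in both other classes.

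At day 7 after LPS, the library level of each of the 10 genes in AT2 cells was lower in β1 AT2-KO than in β1 fl/fl mice. The log2 ratios ran from -1.57 for *Dnajb1* to -0.27 for *Hsp90ab1*, with a median of -0.95 against 0.09 over the 10739 genes with at least 10 UMIs. All 10 counting intervals lay below 0, but they cover counting error only and not the spread between cells or mice. The share of all genes with such an interval was not computed. By the mean of the mice *Hsp90ab1* did not share this order (1096 ± 211 SD in β1 fl/fl and 1102 ± 175 SD in β1 AT2-KO, n = 3 each), and the median log2 ratio was -0.62. Without the single-hashtag cells of the first β1 fl/fl mouse the median of the library ratios was -0.61. In 4 of the 10 genes, *Hspa8*, *Hsp90aa1*, *Dnajb1* and *Hspe1*, each β1 AT2-KO mouse was below each β1 fl/fl mouse, as in 4.66% of all genes, while 10.8% of all genes were higher without overlap and no member was. Values per mouse rest on 17 to 54 AT2 cells in β1 fl/fl and 43 to 108 in β1 AT2-KO mice.

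Among the HSP70 genes, *Hspa1a* in AT2 cells was at 1009, 613 and 885 CPM in the 3 β1 fl/fl mice and at 726, 349 and 568 in the 3 β1 AT2-KO mice. *Hspa1b* was at 996, 676 and 590 against 765, 228 and 274. In both genes the first β1 AT2-KO mouse lay within the range of the β1 fl/fl mice and the other 2 below it, and the library ratios were 0.495 and 0.354. *Hspa8*, the constitutive HSP70, was at 1565, 1251 and 1714 in β1 fl/fl and at 1208, 1113 and 997 in β1 AT2-KO mice. Those groups did not overlap, although the ratio of 0.716 was the nearest to 1 of the 3 HSP70 genes. *Hsph1*, the HSP110 nucleotide exchange factor, was at 147, 19.0 and 38.1 in β1 fl/fl and at 50.5, 24.96 and 57.2 in β1 AT2-KO mice. Its library ratio of 0.378 thus rested on 1 β1 fl/fl mouse, and the other 2 lay within or below the β1 AT2-KO range. The values of those other 2 rest on 3 and 8 UMIs.

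*Dnajb1* in AT2 cells was at 675, 379 and 543 CPM in the β1 fl/fl mice and at 280, 207 and 130 in the β1 AT2-KO mice, a library ratio of 0.337. It was the lowest ratio of the 10 genes, and only 0.587% of all genes had a lower one. *Hsp90aa1* was at 699, 512 and 443 in β1 fl/fl and at 297, 266 and 295 in β1 AT2-KO mice, a ratio of 0.440 with no β1 AT2-KO mouse above 297. *Hspe1* was at 326, 183 and 281 against 112, 153 and 170, a ratio of 0.541, without overlap. *Hspb1*, by contrast, overlapped widely, at 856, 588 and 624 in β1 fl/fl and at 833, 546 and 240 in β1 AT2-KO mice. *Hspd1* was at 86.4, 145 and 105 against 112, 80.3 and 82.0, again with overlap.

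Other markers moved beside these values. The summed level of 20 immediate early genes in AT2 cells was 16974 to 23592 CPM in the β1 fl/fl mice and 13068 to 22137 in the β1 AT2-KO mice, with 9 of 20 genes above and 11 below 0 on the log2 scale. The summed level of 8 alveolar type 1 markers was 1282 to 1652 in β1 fl/fl and 2064 to 2885 in β1 AT2-KO mice. Of 10 immune markers, 7 were at 0 in AT2 cells of the β1 fl/fl and 4 in those of the β1 AT2-KO library, with summed levels of 22733 and 15228. These sums came only from the markers not at 0. The list holds *Lyz2*, and the sums were not taken apart by gene, so they are no measure of immune cell RNA. The part of these in the heat shock values was not tested.

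**Figure D1:**
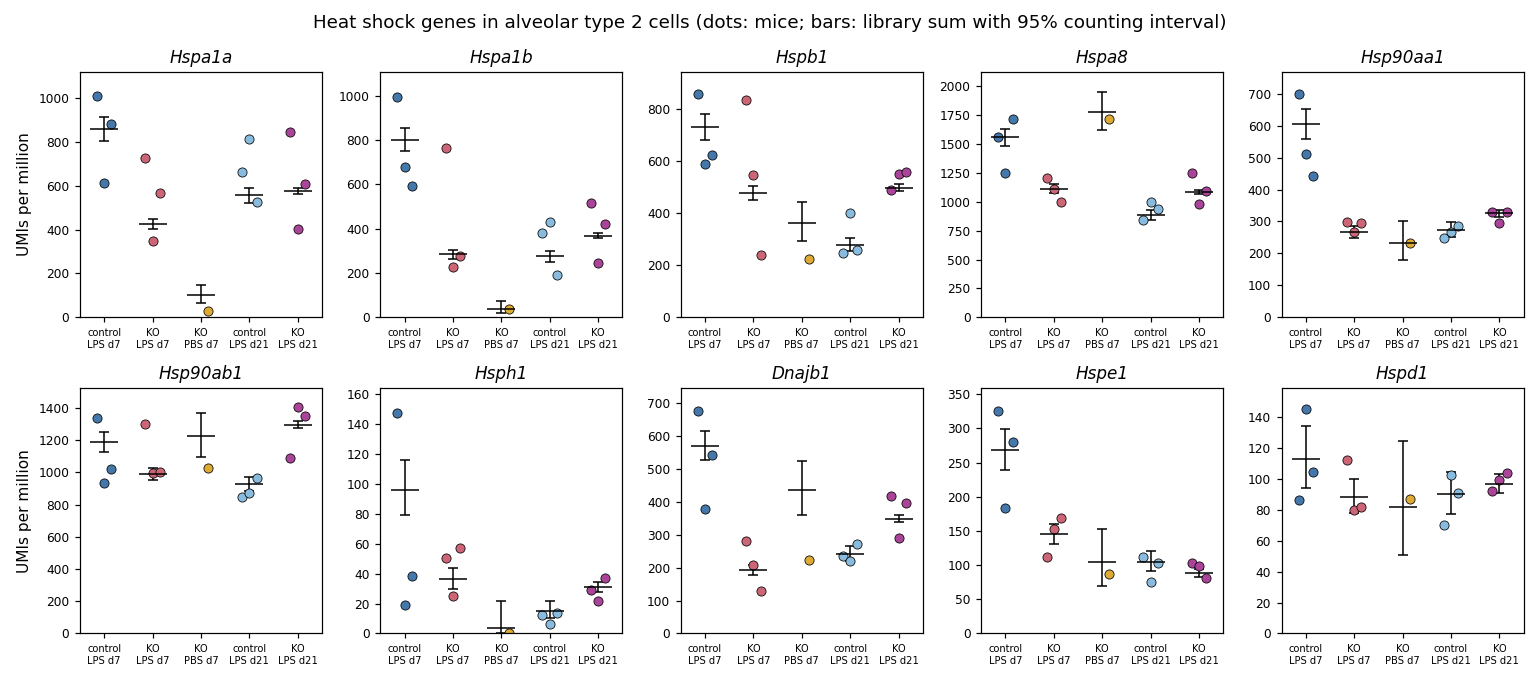
Levels of the 10 heat shock genes in AT2 cells, in CPM on a linear axis from 0, for the 5 libraries (control is β1 fl/fl, KO is β1 AT2-KO, d is day). Dots are mice with at least 10 AT2 cells, horizontal bars are the library sum with its 95% counting interval. Dnajb1 and Hsp90aa1 lie lower in each β1 AT2-KO mouse than in each β1 fl/fl mouse at day 7, and higher in each at day 21.

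Within β1 AT2-KO mice at day 7, LPS was compared with PBS, using the same LPS library as the genotype comparison. Only 26 AT2 cells were found after PBS, and only 1 PBS mouse had 10 or more of them (11 cells), so levels after PBS are given for the library. *Hspa1a* was at 425 CPM after LPS (95% counting interval 401 to 450) and at 101 after PBS (66.1 to 148), 4.12-fold apart with 0.5 UMIs added to each count. *Hspa1b* was at 283 (264 to 304) and 38.9 (18.7 to 71.6), 6.93-fold apart. *Hsph1* had a single UMI in PBS cells, and its ratio of 6.25 had a log2 counting interval from 0.71 to 8.54. The pair of inducible HSP70 genes thus stood lower in AT2 cells after PBS than in any LPS library. *Dnajb1* had the opposite order, at 192 (176 to 209) after LPS and 436 (359 to 525) after PBS. In the PBS mouse with 11 cells *Dnajb1* was at 223, within the range of the LPS mice (280, 207 and 130), whereas its *Hspa1a* (29.1) and *Hspa1b* (38.8) lay below all 3. *Hspa8* was at 1115 after LPS and 1780 after PBS, and *Hsp90ab1* at 988 and 1227. The counting intervals of the remaining log2 ratios held 0 for *Hsp90aa1*, *Hspe1* and *Hspd1*, and *Hspb1* had a ratio of 1.31. The median of the 10 log2 ratios was 0.28 against 0.16 over all genes, and it covers members that differed in direction. It was 0.45 without the single-hashtag cells of the first PBS mouse and 0.15 without those of the third. Immediate early genes in AT2 cells summed to 19890 after LPS and 25347 after PBS, and their part was not tested.

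At day 21, the order in AT2 cells was the other way round. The library level was higher in β1 AT2-KO than in β1 fl/fl mice for 9 of the 10 genes, with a median log2 ratio of 0.36 against 0.12 over all 12053 genes. In 5 genes, *Hspb1*, *Hsp90aa1*, *Hsp90ab1*, *Hsph1* and *Dnajb1*, each β1 AT2-KO mouse was above each β1 fl/fl mouse, as in 18.4% of all genes; none was lower without overlap, as in 5.79%. *Hspb1* was at 245, 399 and 259 CPM in β1 fl/fl and at 488, 549 and 558 in β1 AT2-KO mice, a library ratio of 1.78. *Dnajb1* was at 235, 221 and 272 against 418, 291 and 396, a ratio of 1.43. *Hsph1* stayed low, at 12.1, 6.24 and 13.5 against 29.1, 21.9 and 37.3, with a library ratio of 2.02 from 29 and 332 UMIs. Its mouse values rest on 5, 2 and 10 UMIs in β1 fl/fl and 66, 49 and 123 in β1 AT2-KO mice. *Hspb1*, *Dnajb1* and *Hsph1* were the 3 genes with the highest ratios. Among the HSP90 genes, *Hsp90ab1* was at 848, 873 and 963 in β1 fl/fl and at 1088, 1409 and 1349 in β1 AT2-KO mice. *Hsp90aa1* was at 249, 268 and 286 against 330, 295 and 330, a ratio of 1.18. Their groups did not overlap, but the gap between the nearest *Hsp90aa1* mice was small, 286 and 295. *Hspa1a* overlapped fully, at 664, 814 and 526 against 846, 403 and 608, and its counting interval held a log2 ratio of 0. *Hspa1b*, *Hspa8*, *Hspe1* and *Hspd1* overlapped too, and *Hspe1* was the 1 gene with a lower library level (ratio 0.844). Immediate early genes were above 0 on the log2 scale in 20 of 20 genes in the same cells, with a summed level of 14741 to 16949 in β1 fl/fl and 21852 to 23920 in β1 AT2-KO mice. Their part was not tested. Without the single-hashtag cells of the β1 fl/fl mouse whose hashtag carried both sex marks, the median log2 ratio was 0.36.

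In endothelial cells, of which 1135 to 1891 stood behind each mouse at day 7, the genotypes were nearer to each other. The median log2 ratio of the 10 genes was -0.15 at day 7, against 0.03 over 14212 genes, with 8 genes below 0. *Hspa1b* had the lowest ratio, 0.548, with 419, 177 and 305 CPM in β1 fl/fl and 280, 124 and 97.7 in β1 AT2-KO mice. *Hspa1a* was at 406, 164 and 345 against 294, 250 and 186, and in both genes the groups overlapped through a low β1 fl/fl mouse. *Dnajb1*, which was lowest of all in AT2 cells of the same libraries, was at 128, 85.5 and 151 against 143, 136 and 111 in endothelial cells, a ratio of 1.04. *Hspa8* was at 1911, 1539 and 1703 against 1501, 1482 and 1324, and *Hsp90ab1* at 1598, 1480 and 1683 against 1466, 1355 and 1422. These 2 genes were lower in each β1 AT2-KO mouse, as were 9.02% of all genes, and 11.7% of all genes were higher without overlap. Immediate early genes were above 0 on the log2 scale in 20 of 20 genes, at 11721 to 16730 in β1 fl/fl and 16777 to 22469 in β1 AT2-KO mice. Their direction was thus opposite to that of the heat shock median in these cells.

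In endothelial cells LPS was set against PBS over 3 mice each, with the LPS library again shared with the genotype comparison. *Hspa8* was at 1501, 1482 and 1324 CPM after LPS and at 3303, 2449 and 2074 after PBS, a ratio of 0.548 without overlap. *Dnajb1* was at 143, 136 and 111 after LPS and at 215, 200 and 146 after PBS, a ratio of 0.661 without overlap. Of all 13883 genes, 11.7% were lower after LPS without overlap and 28.7% higher. *Hspa1a* and *Hspa1b* had ratios of 0.619 and 0.593, and the third PBS mouse, at 235 and 161, lay within the LPS range in both. *Hsp90ab1* was at 1466, 1355 and 1422 after LPS and at 2343, 1693 and 1456 after PBS, and *Hspb1* at 761, 578 and 472 against 853, 786 and 685. In both the first PBS mouse, the one with *Xist*, was the highest and the groups overlapped. Without the single-hashtag cells of that mouse the median log2 ratio of the 10 genes was -0.29. *Hsp90aa1*, *Hsph1*, *Hspe1* and *Hspd1* had ratios between 0.934 and 1.07, and all 4 overlapped. The median log2 ratio was -0.40, against 0.14 over all genes, and immediate early genes summed to 16777 to 22469 after LPS and 22021 to 24374 after PBS. Their part was not tested.

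**Figure D2:**
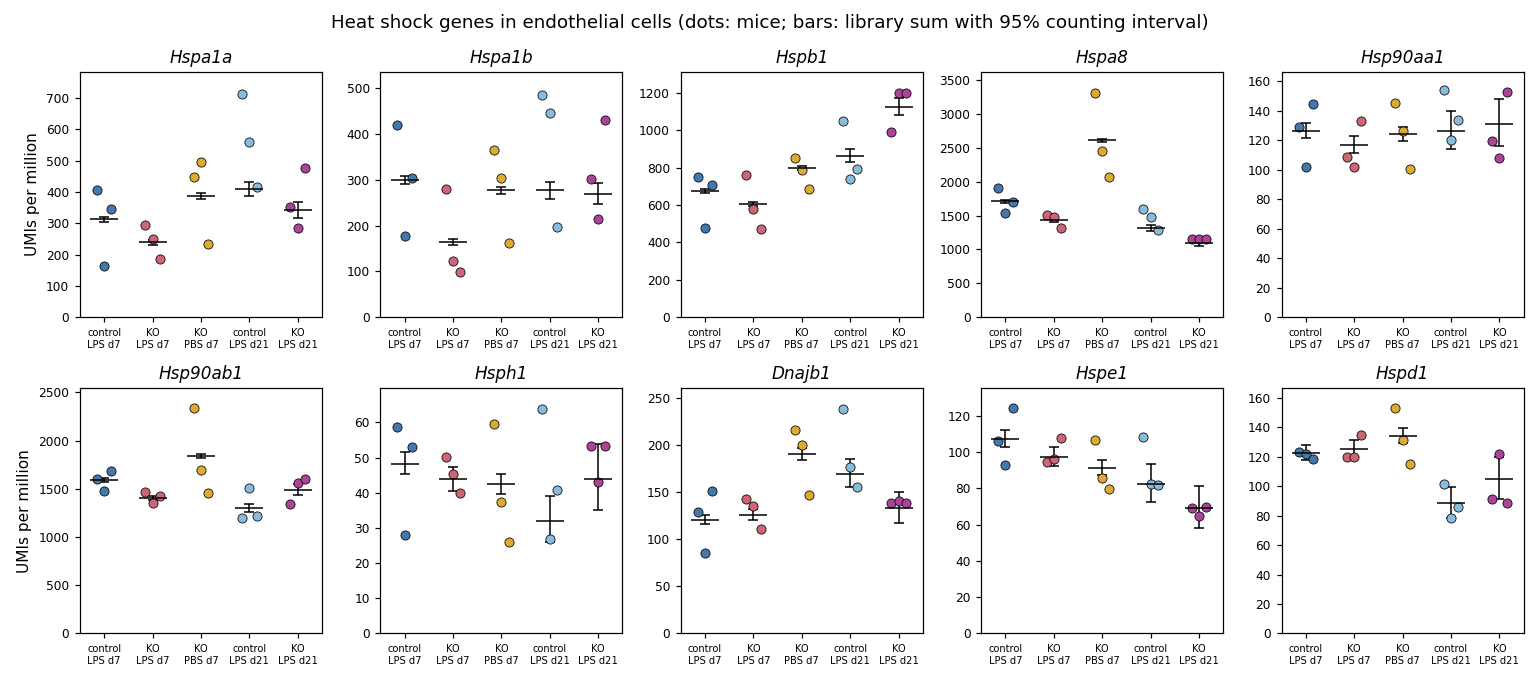
Levels of the 10 heat shock genes in endothelial cells, in CPM on a linear axis from 0, drawn as in the plot for AT2 cells. Hspa8 is highest in the 3 β1 AT2-KO mice given PBS, at 2074 to 3303, above all mice of the other libraries.

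At day 21 the 10 endothelial log2 ratios centred on 0.01, with 5 genes on each side. *Hspa8* was at 1601, 1474 and 1280 CPM in β1 fl/fl and at 1153, 1154 and 1152 in β1 AT2-KO mice. *Dnajb1* was at 238, 176 and 155 against 138, 140 and 138, and *Hspe1* at 108, 82.3 and 81.8 against 69.1, 64.7 and 69.8. These 3 genes were lower in each β1 AT2-KO mouse, as were 9.09% of all genes (7.18% were higher without overlap). *Hspb1* was at 1051, 737 and 790 against 993, 1201 and 1202, a ratio of 1.30 with overlap. Without the single-hashtag cells of the β1 fl/fl mouse with both sex marks the median log2 ratio was 0.15. Cells with a single hashtag differed from the rest in the β1 fl/fl library: *Hspa1a* was at 543 in those 755 cells and at 186 in the other 432. Of the 10 genes, 6 were lower in β1 AT2-KO than in β1 fl/fl mice in cells with a single hashtag and 2 in the other cells. AT2-derived RNA was more common in the β1 AT2-KO library, where *Sftpc*, the surfactant protein C transcript, stood at 7.46% of its AT2 level in endothelial cells, against 1.29% in the β1 fl/fl library. At that share, AT2 RNA would carry 43.1 of the 342 CPM of *Hspa1a* and 26.0 of the 133 of *Dnajb1* in β1 AT2-KO endothelial cells. In the day 7 libraries it would carry at most 12.2 of 313 for *Hspa1a*. Immediate early genes were below 0 on the log2 scale in 19 of 20 genes at day 21, and their part was not tested.

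Mesenchymal cells had the AT2 order at day 7. The library level was lower in β1 AT2-KO mice for all 10 genes, with a median log2 ratio of -0.59 against -0.06 over 12406 genes. In 7 genes each β1 AT2-KO mouse was below each β1 fl/fl mouse, as in 5.89% of all genes (5.09% were higher). *Hspa1a* was at 659, 739 and 797 CPM in β1 fl/fl and at 296, 485 and 484 in β1 AT2-KO mice. *Hspa1b* was at 604, 586 and 747 against 439, 246 and 250, and *Hsph1* at 113, 171 and 137 against 51.2, 24.6 and 46.2. Summed over the HSP70 pair, the 3 β1 AT2-KO mice were nearly alike, at 736, 731 and 733, against 1262, 1325 and 1544. *Hspb1* was at 2034, 1325 and 1773 against 930, 807 and 1091, *Hspa8* at 2013, 1298 and 1422 against 1277, 1140 and 1147, and *Hsp90aa1* at 302, 230 and 276 against 176, 150 and 150. *Hspe1*, at 189, 178 and 235 against 154, 145 and 157, was the seventh. These mouse values cover the 211 of 395 β1 fl/fl and 295 of 553 β1 AT2-KO cells with a single hashtag. In the other 184 and 258 cells 9 of the 10 genes were lower in β1 AT2-KO mice, and *Hspb1* was not: it was at 569 in β1 fl/fl and 649 in β1 AT2-KO cells there, against 1727 and 1005 in cells with a single hashtag. *Hspa1a* was at 403 and 342 in the other cells, and at 763 and 458 in cells with a single hashtag. *Dnajb1* was at 1229, 415 and 504 against 176, 556 and 258, so its library ratio of 0.498 came with mice that overlapped. In the same cells 19 of 20 immediate early genes were above 0 on the log2 scale, with sums of 19757 to 38764 in β1 fl/fl and 29134 to 37305 in β1 AT2-KO mice. Their part was not tested.

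After PBS, no mouse had 10 mesenchymal cells with a single hashtag, so the 103 PBS cells give library values only. *Hspa8* was at 1054 CPM after LPS (95% counting interval 1018 to 1091) and 2272 (2116 to 2437) after PBS, which was the same order as in endothelial and AT2 cells. *Dnajb1* had the reverse order to those classes, at 270 (252 to 289) after LPS and 139 (102 to 184) after PBS. At day 21, mesenchymal *Hspa1b* was at 169, 956 and 235 in β1 fl/fl and at 16.2, 20.5 and 15.7 in β1 AT2-KO mice, values that rest on 1, 2 and 1 UMIs. It was the only member without overlap, against 6.03% of all genes lower and 5.59% higher. The library level in β1 AT2-KO mice was 99.2, since cells without a single hashtag were at 147. *Hspa1a*, at 195, 621 and 274 against 146, 41.0 and 439, overlapped, as did the other 8. The β1 AT2-KO values rest on 15 to 24 cells a mouse. Without the β1 fl/fl mouse with both sex marks the median log2 ratio was -0.41 (-0.39 with it). Only its cells with a single hashtag were left out. Of the 331 β1 fl/fl cells, the 248 without a single hashtag stayed in.

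**Figure D3:**
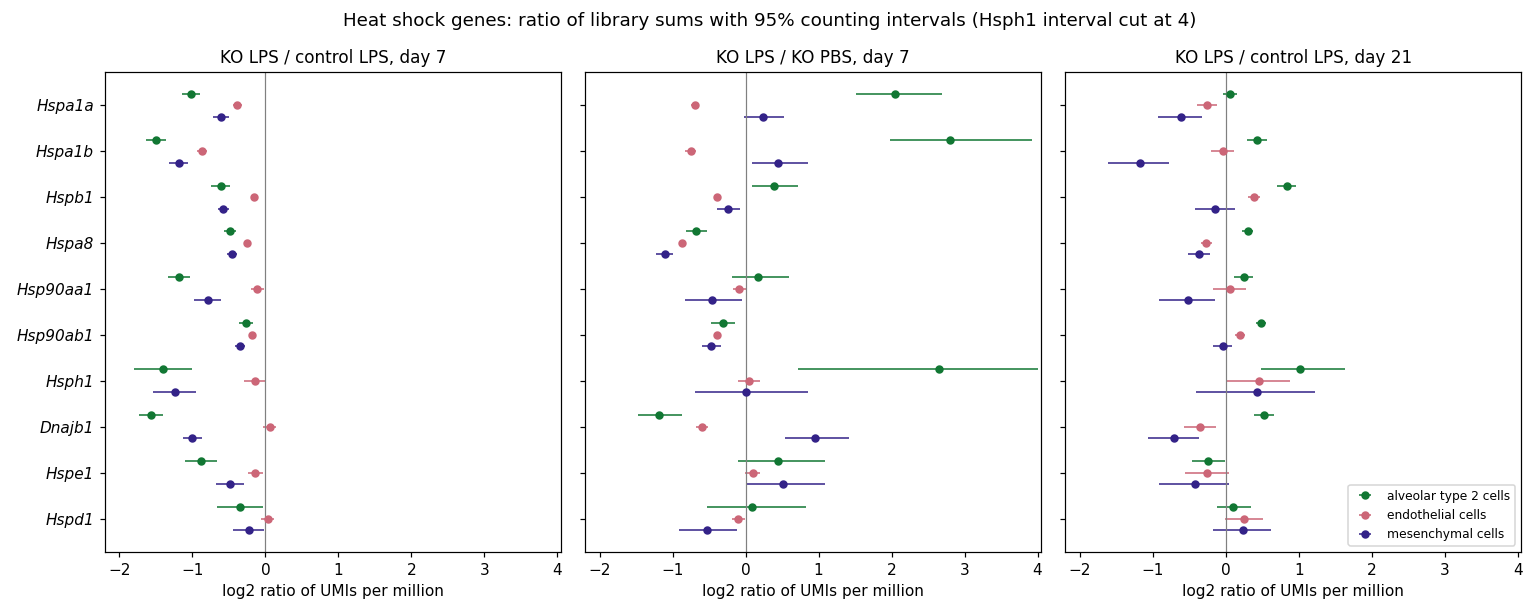
Log2 ratio of library levels (points) with 95% counting intervals (lines) for the 10 genes in AT2, endothelial and mesenchymal cells, for the 3 comparisons. Intervals cover counting error only, and that of Hsph1 in AT2 cells, LPS against PBS, is cut at 4. Between genotypes, the AT2 points lie left of 0 for all genes at day 7 and right of 0 for 9 of them at day 21.

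The 3 comparisons and 3 classes had no common pattern. *Hspa8* had a library ratio below 1 in 8 of the 9 combinations, AT2 cells at day 21 (1.23) being the exception. In AT2 cells *Dnajb1* had a log2 ratio of -1.57 between genotypes at day 7 and 0.52 at day 21, and *Hsp90aa1* had -1.18 and 0.24; the days differ in enrichment and were not tested against each other.

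Companion genes, from 8 lists of the chaperone network and of immediate early genes, were tested over mice with edgeR in the same cells, with p-values adjusted over all genes tested. In AT2 cells at day 7, 4 of 80 tested companions were lower in β1 AT2-KO mice and none higher, where 1.68% of all genes were called, 0.927% lower and 0.75% higher. They included *Dnajb9*, an HSP40 of the endoplasmic reticulum (log2 fold change -1.55 ± 0.25 SE, adjusted p = 0.00130), and the immediate early genes *Egr1* (-0.86 ± 0.21) and *Btg2* (-0.75 ± 0.19). Nothing was called among the HSP70 and HSP110, HSP40, small heat shock protein, co-factor, and mitochondrial and CCT chaperone lists. *Bag3*, an HSP70 co-factor and a known HSF1 target, was at -0.88 ± 0.32 (adjusted p = 0.221), and *Dnaja1*, an HSP40, at -0.48 ± 0.18 (adjusted p = 0.221). *Fos*, *Jun*, *Atf3* and *Hspa5* were not called either, at -0.52, -0.60, -0.07 and -0.33. Without the first β1 fl/fl mouse no companion was called, and without the first or the third β1 AT2-KO mouse 1 was.

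In AT2 cells at day 21, 15 of 89 companions rose in β1 AT2-KO mice and none fell, where 4.09% of all genes were called, 2.58% lower and 1.51% higher. Of the 15, 8 were immediate early genes, led by *Atf3* (1.40 ± 0.11 SE, edgeR adjusted p = 7.85e-09) and *Klf6* (0.92 ± 0.11). From the chaperone lists came *Hspb8*, a small heat shock protein that works with *Bag3* (1.00 ± 0.21), *Bag3* itself (0.76 ± 0.21, adjusted p = 0.0423), the HSP40 genes *Dnajb4* and *Dnajb2*, and the endoplasmic reticulum chaperones *Dnajb9* and *Hspa5* (0.72 ± 0.11). *Sqstm1*, a receptor that carries ubiquitinated protein to autophagy, was the remaining one. *Fos* was called at 0.34 ± 0.10, while *Jun* (0.24), *Hsf1* (0.33) and *Dnaja1* (-0.02) were not. None of the 6 tested HSP70 and HSP110 genes and none of the 10 mitochondrial and CCT chaperones passed.

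LPS against PBS in AT2 cells set 3 mice against 1, whose spread was taken to equal that of the others. No spread was measured after PBS, the error comes from the spread of the 3 LPS mice pooled over genes by edgeR, and no p is given for single genes. Of 84 companions 10 passed the threshold as lower after LPS, 8 of them immediate early genes, where 0.961% of all genes were called, 0.625% lower and 0.336% higher. *Socs3*, a feedback inhibitor of cytokine signalling, was at a log2 fold change of -2.43 ± 0.28 SE, *Egr1* at -1.36 ± 0.23 and *Hspb8* at -1.35 ± 0.37. *Atf3* (-1.18) and *Jun* (-0.90) were called, whereas *Fos* (-0.08), *Hsf1* (0.83 ± 1.51), *Bag3* (0.59), *Dnaja1* (0.52) and *Hspa5* (0.05) were not. These values rest on the 11 AT2 cells of the PBS mouse, and without the third LPS mouse 6 were called.

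In endothelial cells 32 of 93 companions fell and 4 rose after LPS against PBS, where 22.1% of all genes were called, 10.7% lower and 11.4% higher. Among the 15 endoplasmic reticulum chaperones 8 fell, with *Hspa5*, the HSP70 of that compartment, at -0.78 ± 0.09 SE (edgeR adjusted p = 0.00108). Among the 19 HSP70 and HSP90 co-factors 7 fell, with *Bag3* at -0.49 ± 0.09. *Hsf1* itself fell by 0.60 on the log2 scale (SE 0.10, adjusted p = 0.00377). The 4 genes that rose were *Hspb6* (1.70 ± 0.42), a small heat shock protein of muscle, *Nr4a1* (1.34 ± 0.29), *Klf6* and *Hspa14*. Of 20 immediate early genes 8 fell, led by *Egr1* (-1.03 ± 0.17), with *Jun* at -0.63 and *Atf3* at -0.60. *Fos* (-0.33) and *Dnaja1* (-0.16) were not called. The count was 19 without the second PBS mouse.

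Between genotypes, 4 of 93 endothelial companions rose at day 7 (2.00% of all genes were called, 0.625% lower and 1.37% higher): *Nr4a1* (1.46 ± 0.25 SE, edgeR adjusted p = 0.0200), *Klf2* (0.66), *Hspa14* (0.56) and *Klf6* (0.52). None was called without the second or the third β1 fl/fl mouse, or without the second β1 AT2-KO mouse, 2 without the first β1 fl/fl mouse, and 10 without the third β1 AT2-KO mouse. At day 21, 12 of 82 fell and none rose (1.97% of all genes were called, 0.96% lower and 1.01% higher), 11 of them immediate early genes. Without the second or the third β1 AT2-KO mouse the count was 7. The lowest were *Ier3* (-1.03 ± 0.13, adjusted p = 5.86e-05), *Nr4a1* (-0.88 ± 0.18) and *Zfp36* (-0.87 ± 0.15), and *Atf3* was at -0.78. No chaperone list had a called gene at day 21: *Bag3* was at -0.04, *Hspa5* at -0.13, *Dnaja1* at -0.06 and *Hsf1* at -0.10, while *Fos* (-0.20) and *Jun* (-0.14) also missed the threshold. At day 7 the same 6 genes lay between -0.20 and 0.35 and *Atf3* was at 0.86 (adjusted p = 0.129). In mesenchymal cells 0 of 79 companions passed at day 7 with edgeR, with 6 at an unadjusted p under 0.05, and 0 of 48 at day 21, with 5. DESeq2 called 0 in both. Of all genes 0.152% were called at day 7, 0.0508% lower and 0.102% higher, and 0.381% at day 21, all of them higher. *Hspa5* was at -0.61 at day 7 and 0.88 at day 21 in these cells, *Bag3* at -0.05 and -0.77, *Fos* at 0.23 and -0.18, and *Jun*, *Atf3* and *Dnaja1* between -0.28 and 0.26.

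The inducible HSP70 pair was unevenly spread over endothelial cells. Cells were thinned to 2000 UMIs each, which left out 2515 of 6508 day 7 β1 fl/fl endothelial cells and 442 to 3344 in the other libraries. In thinned endothelial cells *Hspa1a* was found in 16.0% to 25.8% of cells, against 38.6% to 62.3% had its UMIs been spread evenly (14.95% to 23.5% of cells unthinned). In the day 7 β1 fl/fl library, the 10% of endothelial cells with the most *Hspa1a* and *Hspa1b* UMIs held 86.0% of them, and in the other libraries 72.5% to 83.2%. For *Hspa8* the corresponding 10% held 21.6% to 31.7%. A single thinned β1 fl/fl cell carried 61 UMIs of the pair. *Hspb1* had the same character, in 39.6% to 73.5% of endothelial cells against 69.4% to 92.6% if even. Other inducible genes lay nearer to an even spread. *Dnajb1* was found in 18.6% to 27.8% of endothelial cells against 21.8% to 34.1% if even. For *Hsp90aa1* the shares were 18.6% to 23.3% against 19.7% to 24.1%, and for *Hsph1* 4.37% to 7.54% against 6.07% to 8.96%. *Hspd1* and *Hspe1*, by contrast, were found in nearly the share of cells that an even spread gives: 21.7% and 21.7% for *Hspd1* in the day 7 β1 fl/fl library, 18.2% and 18.8% for *Hspe1*. In AT2 cells the pair was less concentrated, with 39.3% of its UMIs in the top 10% of cells of the day 7 β1 fl/fl library and 47.2% in that of β1 AT2-KO. *Hspa1a* was found in 61.5% of thinned AT2 cells (95% binomial interval 52.1% to 70.4%, exact) of the former and 39.8% (34.6% to 45.1%) of the latter, in 37.7% (30.5% to 45.3%) and 39.4% (36.6% to 42.2%) at day 21, and in 15.4% (4.36% to 34.9%) of 26 cells after PBS. At day 21 the top 10% of AT2 cells held 57.4% of the pair's UMIs in β1 fl/fl and 53.0% in β1 AT2-KO mice. After PBS they held 66.7%, although *Hspa1a* was near an even spread there, which would give 14.3% of cells. Such a share rises as the level falls, and levels were not matched between classes or with *Hspa8*. The binomial intervals count cells pooled over the mice of a library and do not cover the spread between mice. Shares of cells were not computed per mouse. *Hspa1a* levels per mouse in AT2 cells overlapped between genotypes on both days.

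**Figure D4:**
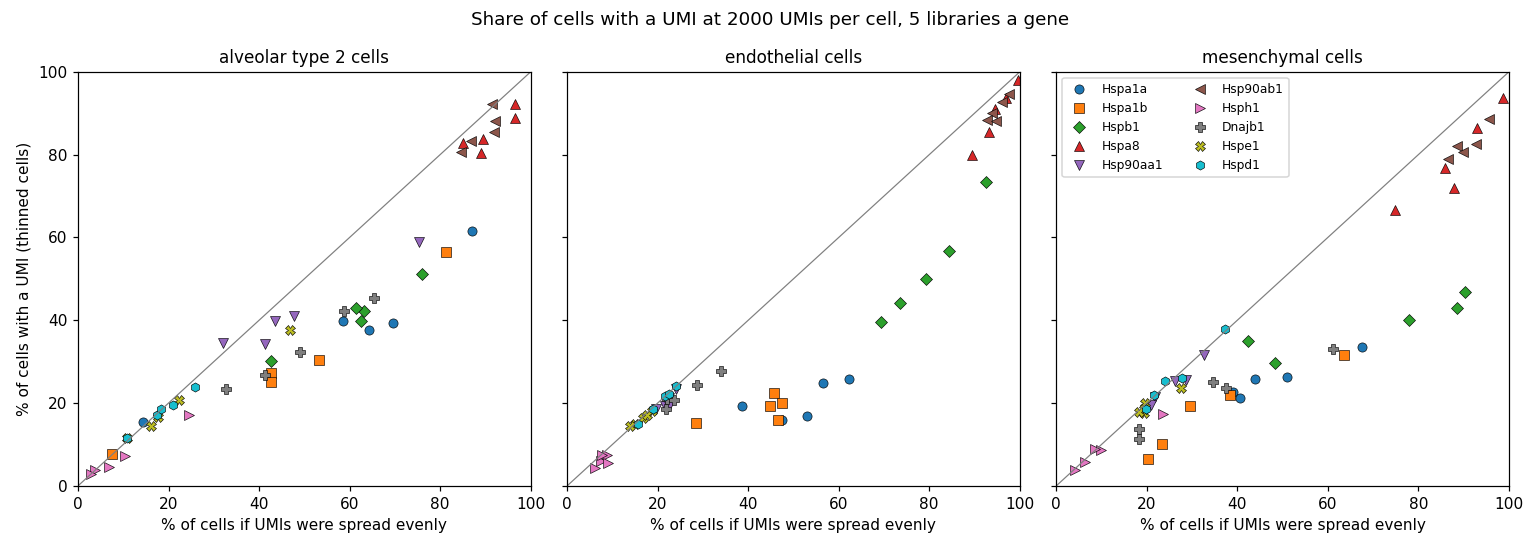
Share of cells with at least 1 UMI of each gene after thinning to 2000 UMIs per cell (vertical) against the share expected if the gene's UMIs were spread evenly over cells (horizontal), both in percent, 1 point per library. Points on the diagonal are evenly spread. Hspa1a, Hspa1b and Hspb1 lie far below it in endothelial cells, while Hspd1 and Hspe1 lie on it.

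The endothelial cells that carried *Hspa1a* or *Hspa1b* also carried other inducible genes, and the constitutive *Hspa8* and *Hsp90ab1*, more often. In the day 7 β1 fl/fl library, *Dnajb1* was found in 33.4% of 864 such cells and in 14.4% of the 3129 others, *Hsph1* in 14.9% and 5.50%, and *Hspb1* in 66.7% and 38.0%. *Fos* was found in 72.2% and 18.4%, and *Atf3* in 52.0% and 11.2%. *Actb*, the cytoplasmic actin gene, was in 99.3% and 98.8%, so near to all cells that little difference could appear. *Dnajb1*, *Hsph1*, *Hspb1*, *Hsp90aa1*, *Fos* and *Atf3* had the same order in all 5 libraries, and *Hspd1* had it in 2. *Hspa8* and *Hsp90ab1* also had it in all 5, at 96.6% against 92.8% and 94.4% against 92.1% in the day 7 β1 fl/fl library. For *Hspb1* the shares lay closer at day 21, at 62.2% against 54.2% in β1 fl/fl and 75.5% against 72.8% in β1 AT2-KO cells. Cells share a library and were thinned to equal depth, and no test was made over cells.

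**Figure D5:**
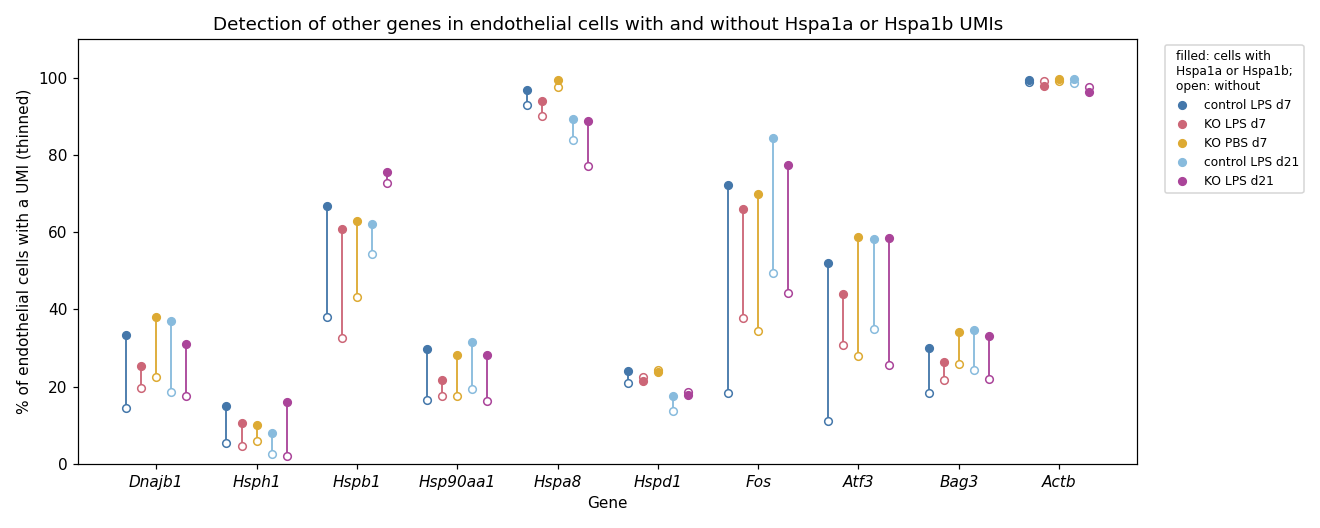
Share of thinned endothelial cells with a UMI of each gene, in percent, in cells with (filled) and without (open) a UMI of Hspa1a or Hspa1b, for the 5 libraries. Fos, Atf3, Dnajb1 and Hsph1 are more often found in the former in each library, while Actb is found in nearly all cells of both kinds.

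Genes whose level followed the inducible members over mice differed between classes. The measure was Pearson's r between a gene's log2 level and the mean log2 level of *Hspa1a*, *Hspa1b*, *Dnajb1* and *Hsph1*, over mice that share libraries. In AT2 cells (13 mice, 5410 genes) the 5 closest were *Mfap3l* (0.930), *Lamp3*, which encodes a lamellar body protein (0.916), *Odc1*, the first enzyme of polyamine synthesis (0.915), *Cpsf3* (0.911) and *Isca2* (0.905). In endothelial cells (15 mice, 6943 genes) they were *Dnttip1* (0.743), *Rapgef4* (0.740), *Gbp7* (0.727), *Fam117b* (0.727) and *Mapk14* (0.718). In mesenchymal cells (12 mice, 7031 genes) they included *Ndufa3* (0.919), *Ccng1* (0.905) and *Atp5h* (0.904). No gene was among the 5 closest in more than 1 class. Of the other members, *Hsp90aa1* had r of 0.697, 0.699 and 0.783 in AT2, endothelial and mesenchymal cells, and *Hspb1* 0.705, 0.714 and 0.420. *Hspd1* had 0.240, -0.255 and -0.157, and *Hspa8* -0.033, 0.249 and 0.676. *Hspe1* had 0.544, 0.0896 and 0.812. The 13 AT2 mice include the PBS mouse with 11 cells. Its *Hspa1a* (29.1 CPM), *Hspa1b* (38.8) and *Hsph1* (0) lay below those of all other mice. The mesenchymal mice include the day 21 β1 AT2-KO mice with 1, 2 and 1 *Hspa1b* UMIs. Such mice can weigh heavily in r, which was not recomputed without them. These are descriptions over few mice of 5 libraries.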

How the data were processed

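Lung cells were profiled with 10x 5′ single-cell RNA-seq in 5 libraries, each with 3 hashtag antibodies in use; each hashtag was taken as 1 mouse. The authors deposited UMI counts per gene and cell, made with Cell Ranger 3.1 on mm10 (the submitters' processing notes also name Seurat 4.1.0). Whether strand was used in counting is not given in the sources used here. The correction for free RNA and the quality and doublet filters described by the study are not part of these counts. The 10 genes and all lists were chosen with earlier results of these data known.

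A cell entered when it had 700 or more genes and when mitochondrial transcripts made up 0.1% to 15% of its UMIs. AT2 cells had *Sftpc* at 5% of UMIs or more, *Epcam* at 1 or more and no *Cdh5*, *Pecam1* or *Col1a2*. Endothelial cells had at least 2 UMIs of *Cdh5* and *Pecam1* and no *Epcam* or *Col1a2*, and mesenchymal cells at least 2 of *Col1a2* and none of the others. No doublet caller was run; these gates drop cells of mixed markers. A cell was given to a mouse when a single hashtag exceeded 4 times its background (the 25th percentile), which held for 53.1% to 78.6% of kept cells; cells with more than 1 hashtag (7.19% to 16.9%) stayed in library sums only. Mice with fewer than 10 cells of a class gave no value.

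Ratios needed at least 10 UMIs over both libraries, with 0.5 UMIs added. Intervals at 95% (exact Poisson, conditional binomial for ratios, exact binomial for shares) cover counting error only. Companion genes were tested with edgeR 4.0.16 (R 4.3.3; quasi-likelihood, TMM, Benjamini-Hochberg over all genes, threshold 0.05) on counts summed per mouse, and with DESeq2 1.42.0 as an alternative; the procedure was tested on simulated data. The p-values measure only the spread between mice of single libraries. Other values used Python 3.11.15, numpy 2.4.6, scipy 1.17.1 and pandas 2.3.3. Likeness used genes with a mean of at least 20 UMIs per 1000000 (CPM), as log2 of the level plus 1. Named companions were the 3 called genes with the largest change per comparison, plus *Hsf1*, *Bag3*, *Dnaja1*, *Hspa5*, *Fos*, *Jun* and *Atf3*; further called genes were named after their values were seen. A few genes that this rule or the likeness measure would name are not reported here.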

Additional observations from a re-analysis of the deposited data

Results flagged for a closer look

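In AT2 cells the genotypes differed in opposite directions at the 2 time points for *Hsp90aa1*, with a log2 ratio of -1.18 at day 7 and 0.24 at day 21, a distance of 1.43, and every mouse on its group's side. *Dnajb1* in AT2 cells had -1.57 and 0.52, a distance of 2.09. At day 21 *Dnajb1* also had opposite directions in AT2 (0.52) and endothelial cells (-0.35), a distance of -0.87. Of all genes in AT2 cells, 4.66% were lower without overlap at day 7 and 18.4% higher at day 21. In endothelial cells 9.09% were lower without overlap at day 21. The day 21 AT2 ratio of *Hsp90aa1* stood beside a median of 0.12 over all genes, and its nearest mice were at 286 and 295 CPM. None of these differences was tested; the day 21 libraries were enriched for EPCAM+ cells and the day 7 libraries were not, genotype and sex cannot be told apart at day 7, and sex was unbalanced at day 21 too.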

How the results depend on the processing

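No paired analysis was possible because the hashtag numbers mark different mice in each library and the labels give no shared replicate numbers. No called result changed direction under the settings run; the endothelial day 21 median, 0.01, ranged from -0.14 to 0.15 with a mouse left out. Of 101 alternative settings of the median log2 ratio, 97 moved it by less than a set limit. That limit was the spread between mice, except for LPS against PBS in AT2 and mesenchymal cells. There too few PBS mice gave a value, so the limit came from the width of the counting intervals, which cover counting error only. Of 76 settings of the number of called companions, 57 stayed within 1.5 times the main number. With the mean of the mice in place of library sums, the mesenchymal median was -0.78 at day 7 (-0.59 in sums) and -0.23 at day 21 (-0.39). For the medians, leaving out a mouse dropped only its cells with a single hashtag. Cells without a single hashtag stayed in, those of the dropped mouse included, so these ranges may understate its weight. Leaving out a mouse gave medians from -1.04 to -0.61 in AT2 cells at day 7 (-0.62 by the mean of the mice), 0.25 to 0.40 at day 21 and 0.15 to 0.45 for LPS, and -0.25 to -0.11 and -0.48 to -0.29 in endothelial cells at day 7 and for LPS. It gave mesenchymal day 7 medians from -0.81 (without the third β1 AT2-KO mouse) to -0.40 (without the third β1 fl/fl mouse). For companions, AT2 cells at day 7 had 7 called without a low-count filter and 9 with the hashtag background at its median, a setting chosen after seeing the data (4 otherwise; 0 to 6 with a mouse left out). DESeq2 called 5 in AT2 cells after LPS against PBS (10 with edgeR; 6 to 10 with a mouse left out) and 7 between genotypes in endothelial cells at day 7, as did edgeR without a filter (4 otherwise; 0 to 10 with a mouse left out). With a mouse left out, endothelial counts were 19 to 30 for LPS and 7 to 12 for genotype at day 21, and mesenchymal counts at day 7 were 0 to 1, with 1 called without a filter. The cause was not tested. Not run were the mesenchymal companion fit and mean of mice for LPS, since no PBS mouse had 10 cells, and the AT2 LPS fit without the only PBS mouse or with the other hashtag background. Few AT2 cells after PBS (26) and few mesenchymal cells per mouse at day 21 limit those values.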
